A study of Saccharomyces cerevisiae with 6 samples.

Results

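The aminoacyl-tRNA synthetase genes of *Saccharomyces cerevisiae* are described here in a wine yeast carrying either of a pair of alleles of *PDR8*. The set has 31 genes, taken by name from the probe annotation of the array, out of 6248 genes and unnamed probes that were compared. Of these, 19 belong to cytosolic protein synthesis (18 synthetase genes and *ARC1*, the gene of a cofactor) and 12 encode enzymes that work only in mitochondria. Each of the 31 genes was read by 1 probe. All of them lay at least 1.65 log2 units above the background level of 5.3.

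A synthetase joins an amino acid to the tRNA that carries the matching anticodon, and so sets which amino acid the ribosome receives. Yeast keeps separate enzymes for the cytosol and for mitochondria for most amino acids, all encoded in the nucleus, while a few genes supply both places from alternative start sites. The enzymes fall into class I and class II, which differ in the fold of the catalytic domain. Genes of the cytosolic enzymes are known as part of the protein synthesis machinery that growing yeast expresses strongly, and charging is sensed by Gcn2p, a kinase that responds to uncharged tRNA and raises the translation of *GCN4*.

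The strains were wild type 59A, a haploid *MATa ho* derivative of the industrial wine strain EC1118, and 59A PDR8-S288c, in which the *PDR8* allele of the laboratory strain S288c replaced that of 59A. *PDR8* encodes a transcription factor of pleiotropic drug resistance. The replacement carried a loxP-kanMX4-loxP cassette in the terminator of *PDR8* and was selected on G418, after a step in which *PDR8* had been deleted with a hygromycin cassette. The effect of the allele and that of the cassette cannot be told apart, and the number of clones examined was not given in the sources used here. Each strain was grown in 3 cultures in a synthetic must with p-aminobenzoate and iron chloride, and RNA was taken in stationary phase at 66 g/l CO2 released (70% of fermentation progress). The cultures are described as biological replicates.

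One-color arrays gave 1 log2 intensity per probe and culture, on a scale normalized between arrays, so that each value is relative to the rest of the RNA of that culture. All 6 arrays were on slide 1, where subarrays 1, 2 and 8 held the wild type and subarrays 5, 6 and 7 held 59A PDR8-S288c. The array of wild type replicate 3 lacked values for 32.9% of the probes, including 7 cytosolic and 6 mitochondrial synthetase genes. These 13 genes were compared over 2 wild type cultures and 3 of 59A PDR8-S288c. The medians of the arrays lay between 8.06 and 8.07, and no pair of arrays shared more than 21 identical values. *QDR2*, the drug transporter gene known to respond to *PDR8*, ranged from 7.57 to 7.68 in wild type cultures and from 9.71 to 9.96 in those of 59A PDR8-S288c. *PDR8* itself stood at 7.21 and 7.26 in wild type replicates 1 and 2. In 59A PDR8-S288c it was lower, at 6.76, 6.77 and 6.70 (LogFC -0.49, SE 0.05, adjusted p = 0.026 from limma). Strain means of 5 genes specific to a cells lay between 8.01 and 11.40 log2 units, and those of 3 genes specific to alpha cells between 5.34 and 5.98, close to background. None of the 8 passed an adjusted p under 0.05 in limma. The largest difference was in the a-factor gene *MFA1*, which averaged 11.01 in the wild type against 10.63 with the S288c allele, without overlap (LogFC -0.38, SE 0.11, adjusted p = 0.125 from limma).

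None of the 31 synthetase genes differed between the strains at an adjusted p under 0.05 (limma with Benjamini-Hochberg adjustment over 6248 features). Over all features, 1.02% were lower and 0.512% were higher in 59A PDR8-S288c at that threshold. At an unadjusted p under 0.05, 6 of the 31 genes were lower and 0 were higher, against 8.10% lower and 9.99% higher over all features. The 6 genes are 19.4% of the set. They were *KRS1*, *FRS1*, *FRS2*, *TYS1*, *GRS1* and *WRS1*, and all of them are cytosolic, which makes 31.6% of the cytosolic genes. The smallest adjusted p in the set was 0.0948, for *FRS1* (limma). The log2 fold change (LogFC) is negative throughout where expression was lower with the S288c allele. With 3 cultures per strain, 0.1 is the smallest two-sided p of an exact permutation test, and *KRS1*, *FRS1*, *FRS2*, *GRS1* and *WRS1* each stood at that limit. Every gene on 6 arrays without overlap between the strains reaches it, so it adds nothing to the lack of overlap. Of all features on 6 arrays, 11.1% were lower and 13.5% higher without overlap. The precision is limited by the 3 arrays per strain.

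**Figure D1:**
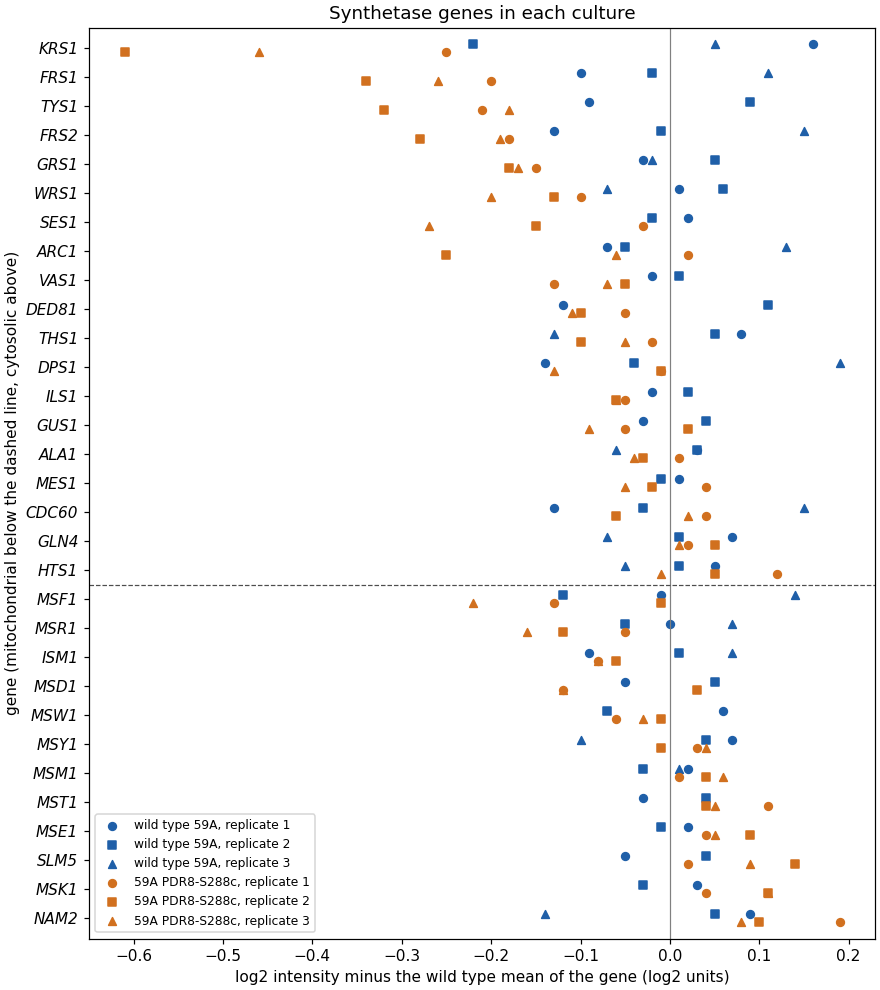
Each point is the log2 intensity of a gene in 1 culture minus the wild type mean of that gene (x axis, log2 units), with wild type cultures in blue and 59A PDR8-S288c cultures in orange; cytosolic genes stand above the dashed line and mitochondrial genes below it. The 3 cultures of 59A PDR8-S288c lie to the left of all wild type cultures in *KRS1*, *FRS1*, *TYS1*, *FRS2*, *GRS1* and *WRS1*. They also do so in *ILS1*, *SES1* and *VAS1*, and *TYS1* and these genes have 2 wild type points each. The mitochondrial genes lie on both sides of 0, with *MSK1* and *MSE1* higher in 59A PDR8-S288c without overlap.

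*KRS1*, the lysyl-tRNA synthetase gene of the cytosol, had the most negative LogFC of the set. It read 10.01, 9.63 and 9.90 log2 units in replicates 1, 2 and 3 of the wild type, against 9.60, 9.24 and 9.39 in those of 59A PDR8-S288c. The lowest wild type culture was only 0.04 log2 units above the highest culture of 59A PDR8-S288c. The LogFC was -0.44 (SE 0.12, 95% confidence interval -0.71 to -0.17, adjusted p = 0.107 from limma), a level of 0.737 times the wild type. It was -0.36 without replicate 2 of 59A PDR8-S288c or without replicate 1 of the wild type, and -0.55 without wild type replicate 2.

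*KRS1* also varied more within the strains than most genes, with a within-strain SD of 0.19 log2 units that only 4.8% of all features exceeded. Within each strain its higher cultures, by which the positions were grouped, were those on subarrays 2, 6 and 8, at 0.06, 0.19 and 0.16 log2 units above the strain mean, and those on subarrays 1, 5 and 7 deviated by -0.21, -0.02 and -0.17. The genes of ergosterol synthesis, taken by their *ERG* names after the values of *KRS1* had been seen, split in the same way. Their median over 11 genes was 0.19, 0.38 and 0.12 above the strain mean on subarrays 2, 6 and 8, and -0.39, -0.28 and -0.11 on subarrays 1, 5 and 7. The split was not limited to these genes. Deviations from the strain mean over 4190 features were correlated between each wild type culture and each culture of the other strain. All values were positive within a subarray group (0.17, 0.49, 0.34 and 0.62) and negative across the groups (from -0.69 to -0.05). Deviations within a strain are not independent. The part of culture state and of slide position in this split was not tested. With the slide position (subarrays 1 to 4 against 5 to 8) as a covariate the LogFC of *KRS1* was -0.60 (SE 0.15, adjusted p = 0.365 from limma), in a fit whose strain difference rests on 1 wild type culture.

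**Figure D2:**
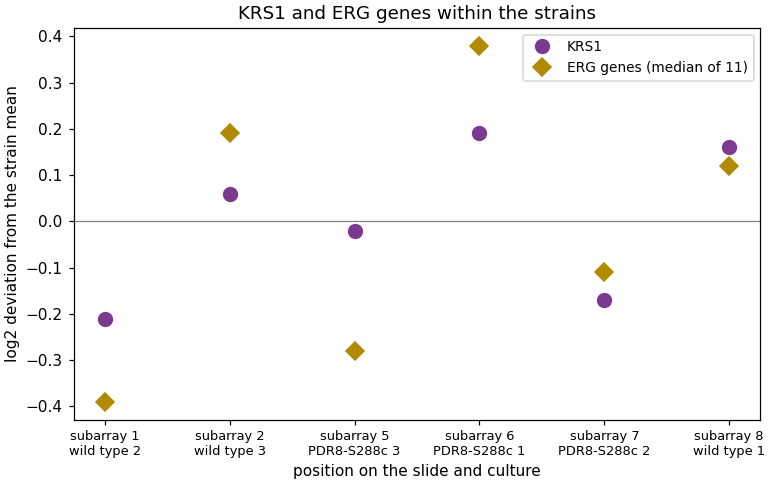
The y axis gives the deviation of a culture from the mean of its strain in log2 units, for *KRS1* (circles) and for the median of 11 *ERG* genes (diamonds), and the x axis gives the cultures by subarray. Both are above 0 on subarrays 2, 6 and 8 and below 0 on subarrays 1, 5 and 7.

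*FRS1* and *FRS2* encode the beta and alpha subunits of the cytosolic phenylalanyl-tRNA synthetase. *FRS1* stood at 7.32, 7.40 and 7.53 log2 units in the wild type and at 7.22, 7.08 and 7.16 in 59A PDR8-S288c, with a LogFC of -0.26 (SE 0.07, adjusted p = 0.0948 from limma). *FRS2* stood at 8.91, 9.03 and 9.19 in the wild type and at 8.86, 8.76 and 8.85 in 59A PDR8-S288c, with a LogFC of -0.22 (SE 0.07, adjusted p = 0.186 from limma). Neither subunit gene overlapped between the strains, but the gaps were 0.10 and 0.05 log2 units, and in both genes wild type replicate 3 was the highest culture. Without that replicate the LogFC was -0.21 for *FRS1* and -0.14 for *FRS2*. With slide position as a covariate it was -0.16 for *FRS1* and -0.08 for *FRS2*.

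*TYS1*, the cytosolic tyrosyl-tRNA synthetase gene, was measured in 2 wild type cultures, at 7.65 and 7.83 log2 units (replicates 1 and 2), and at 7.53, 7.42 and 7.56 in 59A PDR8-S288c. Its LogFC was -0.23 (SE 0.08, adjusted p = 0.178 from limma), and it was -0.14 without wild type replicate 2 and -0.33 without wild type replicate 1. *GRS1*, whose product charges glycine tRNA in the cytosol and in mitochondria, was tighter. It stood at 9.61, 9.69 and 9.62 in the wild type and at 9.49, 9.46 and 9.47 in 59A PDR8-S288c. This was a LogFC of -0.17 (SE 0.04, adjusted p = 0.105 from limma), with a gap of 0.12 log2 units between the strains. *WRS1*, the cytosolic tryptophanyl-tRNA synthetase gene, read 7.72, 7.77 and 7.64 in the wild type and at 7.61, 7.58 and 7.51 in 59A PDR8-S288c, a LogFC of -0.15 (SE 0.05, adjusted p = 0.19 from limma). All 6 genes kept a negative LogFC in each alternative that was computed for them, from -0.60 to -0.36 in *KRS1* and from -0.18 to -0.12 in *WRS1*. With slide position as a covariate 1 of the 31 genes had an unadjusted p under 0.05, as had 595 of all 6248 features. The strain difference of that fit rests on 1 wild type culture.

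The other 13 cytosolic genes had LogFC between -0.15 and 0.05, with a median of -0.05. *SES1*, the seryl-tRNA synthetase gene, had a LogFC of -0.15 (SE 0.08), which was -0.09 without replicate 3 of 59A PDR8-S288c. *ARC1* had one of -0.10 (SE 0.08), which was -0.02 without replicate 2 of that strain, -0.16 without its replicate 1 and -0.04 without wild type replicate 3. Arc1p binds the methionyl and glutamyl enzymes, whose genes *MES1* and *GUS1* had LogFC of -0.01 and -0.05 (SE 0.05 and 0.06). The genes of the asparaginyl, aspartyl and threonyl enzymes, *DED81*, *DPS1* and *THS1*, had LogFC of -0.08, -0.06 and -0.06 (SE 0.08, 0.09 and 0.06). *ILS1*, which encodes the isoleucyl enzyme, had a LogFC of -0.05 (SE 0.05). The values of *ILS1* were close together, at 10.15 and 10.19 in the wild type against 10.12, 10.11 and 10.11 in 59A PDR8-S288c, and 98.6% of all features had a larger within-strain SD.

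The highest LogFC of the cytosolic genes were near 0. *HTS1*, which supplies histidyl-tRNA synthetase to both cytosol and mitochondria, stood at 9.21, 9.17 and 9.11 log2 units in the wild type and at 9.28, 9.21 and 9.15 in 59A PDR8-S288c (LogFC 0.05, 95% confidence interval -0.07 to 0.17). *GLN4*, the glutaminyl-tRNA synthetase gene, stood at 8.82, 8.76 and 8.68 in the wild type and at 8.77, 8.80 and 8.76 in 59A PDR8-S288c (LogFC 0.02, 95% confidence interval -0.09 to 0.14). *CDC60*, the cytosolic leucyl-tRNA synthetase gene, stood at 6.89, 6.99 and 7.17 in the wild type and at 7.06, 6.96 and 7.04 in 59A PDR8-S288c (LogFC 0.00, 95% confidence interval -0.17 to 0.17). In each of these genes the strains overlapped. The genes *HTS1*, *GRS1*, *VAS1* and *ALA1* each encode the cytosolic and the mitochondrial form of an enzyme. Their LogFC were 0.05, -0.17, -0.08 and -0.02, with a median of -0.05, beside -0.08 for the 15 other cytosolic genes.

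Among the 12 mitochondrial genes, 5 had a negative and 7 a positive LogFC, and 0 had an unadjusted p under 0.05 in limma. *MSF1*, *MSR1* and *MSD1* had the lowest LogFC, in an order that rested on single arrays. *MSF1*, the mitochondrial phenylalanyl-tRNA synthetase gene, stood at 8.03, 7.92 and 8.18 log2 units in the wild type and at 7.91, 8.03 and 7.82 in 59A PDR8-S288c (LogFC -0.12, SE 0.08). *MSR1*, which encodes the arginyl enzyme, stood at 8.89, 8.84 and 8.96 in the wild type and at 8.84, 8.77 and 8.73 in 59A PDR8-S288c (LogFC -0.11, SE 0.05, adjusted p = 0.295 from limma, the smallest of the mitochondrial genes). *MSD1*, which encodes the aspartyl enzyme, stood at 8.29 and 8.39 in the wild type and at 8.22, 8.37 and 8.22 in 59A PDR8-S288c (LogFC -0.07, SE 0.07). The strains overlapped in all 3 of these genes. Without wild type replicate 3 the LogFC was -0.05 for *MSF1* and -0.08 for *MSR1*, beside the -0.07 of *MSD1*, which had no value on that array.

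*NAM2*, *SLM5* and *MSK1* had the highest LogFC. *NAM2* encodes the mitochondrial leucyl-tRNA synthetase, which is also needed to splice mitochondrial introns. *NAM2* stood at 8.45, 8.41 and 8.22 log2 units in the wild type and at 8.55, 8.46 and 8.44 in 59A PDR8-S288c (LogFC 0.13, SE 0.07, 95% confidence interval -0.03 to 0.28, adjusted p = 0.38 from limma). Wild type replicate 3 was the low culture, and without it the LogFC was 0.06, below the 0.09 of *SLM5* and of *MSK1*, which had no value on that array. *SLM5*, the mitochondrial asparaginyl-tRNA synthetase gene, stood at 7.00 and 7.09 in the wild type and at 7.07, 7.19 and 7.14 in 59A PDR8-S288c (LogFC 0.09, SE 0.06). *MSK1*, which encodes the mitochondrial lysyl enzyme, stood at 9.76 and 9.70 in the wild type and at 9.77, 9.84 and 9.84 in 59A PDR8-S288c (LogFC 0.09, SE 0.05). The strains did not overlap in *MSK1*, by a gap of 0.01 log2 units. Of the remaining mitochondrial genes, *ISM1* (isoleucine) and *MSW1* (tryptophan) had LogFC of -0.07 and -0.03, and *MSY1* (tyrosine), *MSM1* (methionine), *MST1* (threonine) and *MSE1* (glutamate) had LogFC of 0.02, 0.03, 0.06 and 0.06.

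**Figure D3:**
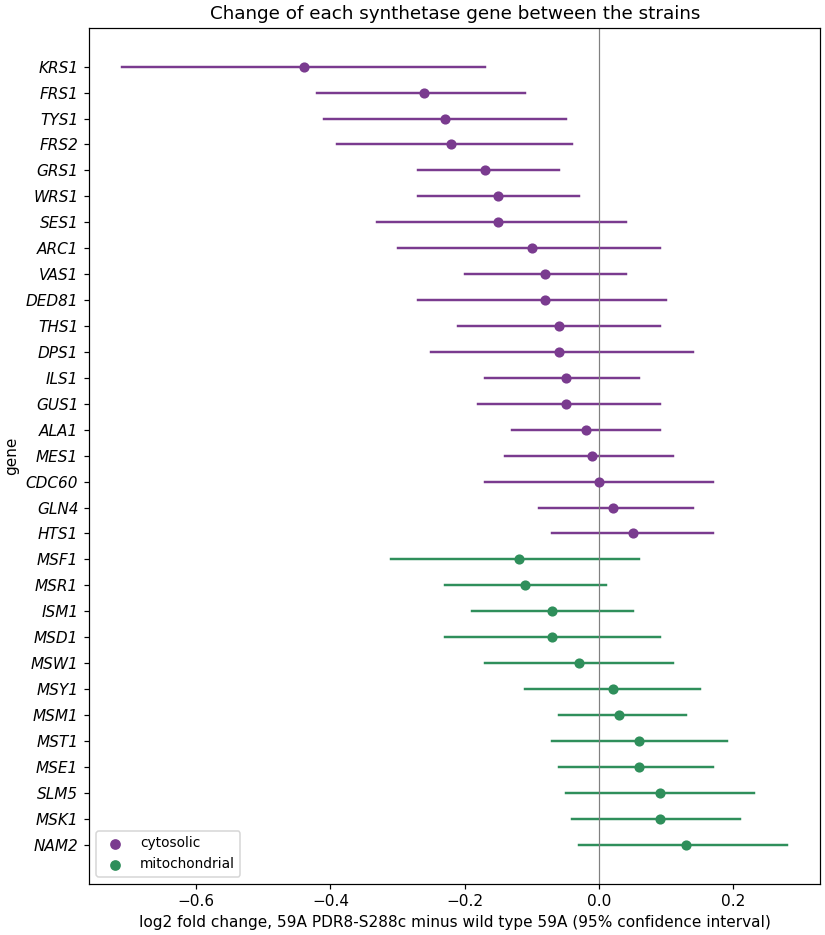
The x axis gives the LogFC of each gene (59A PDR8-S288c minus wild type 59A) with its 95% confidence interval from limma, for cytosolic (purple) and mitochondrial (green) synthetase genes. The intervals of the 6 cytosolic genes from *KRS1* to *WRS1* lie below 0 before any adjustment, and those of the 12 mitochondrial genes include 0.

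The median LogFC was -0.08 over the 19 cytosolic genes, of which 16 (84.2%) were below 0, and 0.03 over the 12 mitochondrial genes, of which 5 (41.7%) were below 0. Over all features the median was 0.01 and 47% were below 0. The genes were chosen with results of these arrays known, so these medians are a description and the difference between the compartments was not tested. Of the 12 cytosolic genes measured on all 6 arrays, 5 did not overlap between the strains with 59A PDR8-S288c lower and 0 with it higher, against 11.1% and 13.5% of all features measured on 6 arrays. Of the 7 measured on 5 arrays, 4 did not overlap with 59A PDR8-S288c lower and 0 with it higher, against 13.1% and 21.9% of such features. None of the mitochondrial genes was lower without overlap, and *MSK1* and *MSE1*, both measured on 5 arrays, were higher without overlap. The mitochondrial median was -0.02 over the 6 genes measured on all arrays and 0.06 over the 6 that wild type replicate 3 lacked, so its sign depended on which genes were counted. The cytosolic median was -0.08 in both subsets.

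Within the cytosolic set, the 8 genes of class I enzymes had a median LogFC of -0.05 and 2 of them an unadjusted p under 0.05, and the 10 genes of class II enzymes had a median of -0.12 and 4 of them, all lower, where the share over all features was 8.10% lower. Within the mitochondrial set the medians were 0.02 for the 7 class I genes and 0.06 for the 5 class II genes. This grouping was made after the values had been seen. Relative to the mean of each gene, the median of the 12 cytosolic genes measured on all arrays was 0.04, 0.02 and 0.10 log2 units in wild type replicates 1, 2 and 3, against 0.01, -0.07 and -0.06 in 59A PDR8-S288c. The median of the 6 mitochondrial genes was 0.04, -0.01 and 0.05 in wild type cultures, against 0.00, 0.00 and -0.01 in 59A PDR8-S288c. Replicate 1 of 59A PDR8-S288c was thus within 0.01 log2 units of wild type replicate 2 in both sets, and wild type replicate 3 was the highest culture in both.

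For the amino acids with a separate enzyme in each compartment, the genes were set side by side as 15 pairs, in which *MSF1* stands opposite both *FRS1* and *FRS2*. The arginine, serine and proline pairs were completed with *YDR341C*, *DIA4*, *YHR020W* and *AIM10*, which lie outside the set. The LogFC of the cytosolic gene was lower than that of its mitochondrial counterpart in 11 of the 15 pairs, with a median difference of -0.12 log2 units. The lysine pair differed most, with -0.44 for *KRS1* and 0.09 for *MSK1*, a difference of -0.53. The tyrosine pair, *TYS1* and *MSY1*, followed with a difference of -0.25, and the asparagine pair, *DED81* and *SLM5*, with -0.17. The order was opposite in the proline pair, where *YHR020W* had a LogFC of 0.10 and *AIM10* one of -0.08, and by 0.03 log2 units or less in the arginine, aspartate and isoleucine pairs. In some pairs only 1 of the genes lacked wild type replicate 3, so their LogFC rest on unlike arrays. Without that replicate the cytosolic change was lower in 12 of the 15 pairs. The order was then opposite in the proline, aspartate and leucine pairs. *DPS1* stood at 0.04 against -0.07 for *MSD1*, and *CDC60* at 0.08 against 0.06 for *NAM2*. The tyrosine pair stood at -0.23 for *TYS1* and -0.04 for *MSY1*. The pairs also differ in the probes they use and were not tested one by one.

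**Figure D4:**
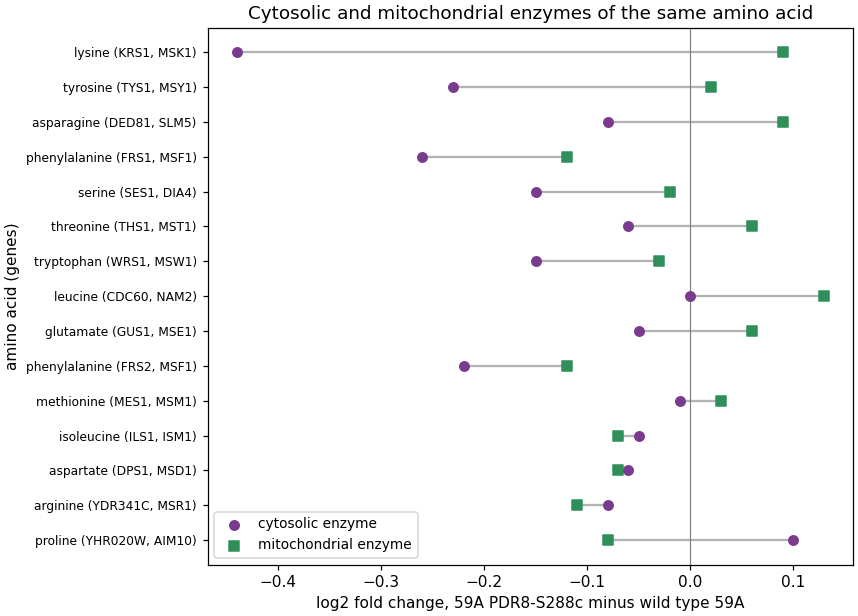
Each row is an amino acid with the LogFC (x axis, 59A PDR8-S288c minus wild type 59A) of its cytosolic enzyme gene (purple circle) and of its mitochondrial enzyme gene (green square). The circle lies to the left of the square in 11 of the 15 rows, with the widest distance, 0.53 log2 units, for lysine.

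Other genes of tRNA charging were read from a list of 22 names, of which 19 were measured. None passed an adjusted p under 0.05 in limma, and 2 (10.5%) were lower and 1 higher at an unadjusted p under 0.05, close to the shares of 8.10% and 9.99% over all features. *CEX1*, a gene of nuclear tRNA export, stood at 7.83, 7.88 and 7.92 log2 units in the wild type and at 7.63, 7.77 and 7.74 in 59A PDR8-S288c (LogFC -0.17, SE 0.05, adjusted p = 0.154 from limma). *DTD1*, the gene of a deacylase that removes D-amino acids from tRNA, had a LogFC of -0.13 (SE 0.06, adjusted p = 0.275 from limma). Its values lay between 6.19 and 6.43 log2 units, near the background of 5.3, and the strains overlapped. *TUF1*, which encodes the mitochondrial elongation factor that delivers charged tRNA, stood at 11.41, 11.46 and 11.37 in the wild type and at 11.53, 11.64 and 11.50 in 59A PDR8-S288c (LogFC 0.15, SE 0.05, adjusted p = 0.208 from limma). The cytosolic arginyl gene *YDR341C* and the mitochondrial seryl gene *DIA4* had LogFC of -0.08 and -0.02. *GCN4*, the activator gene of amino acid synthesis, stood at 12.22, 12.11 and 12.37 in the wild type and at 12.23, 12.34 and 12.22 in 59A PDR8-S288c (LogFC 0.03, SE 0.07). Its control is mostly translational, which RNA levels do not show.

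Beside the synthetase genes, the 134 genes named for cytosolic ribosomal proteins had a median LogFC of -0.38, and 47 of them were lower at an adjusted p under 0.05 in limma and 0 higher, against 1.02% and 0.512% of all features. At an unadjusted p under 0.05, 124 of the 134 genes (92.5%) were lower and 1 higher, against 8.10% and 9.99% of all features. The count of 47 rested on single arrays. It was 0 without wild type replicate 2 or without replicate 1 or 2 of 59A PDR8-S288c. In each of these settings calls over all features fell from 96 to 3. The count was 8 without wild type replicate 1, and 40 without replicate 3 of either strain. Without single arrays the median ran from -0.42 to -0.35. With slide position as a covariate the count was 0 and the median -0.33. The strain difference of that fit rests on 1 wild type culture. With replicate blocks by titles and by descriptions the count was 14 and 0. It was 69 with trended robust variance and with array weights. With dim features left out it was 50 of 133 genes, and on features of all 6 arrays 37 of 87. The cytosolic synthetase genes, at -0.08, lay between the ribosomal protein genes and the median of all features. The 72 genes named for mitochondrial ribosomal proteins had a median of 0.03, with 0 called, the same value as the mitochondrial synthetase genes. The 63 measured genes of amino acid synthesis had a median of -0.02, with 1 lower and 0 higher at an adjusted p under 0.05. In the ribosomal protein genes the median of each 59A PDR8-S288c culture lay below the median of each wild type culture. Over 87 genes measured on all arrays, the wild type medians were 0.13, 0.28 and 0.20 log2 units around the gene means. Those of 59A PDR8-S288c were -0.20, -0.26 and -0.09, with replicate 3 nearest to the wild type. By gene, 78 of the 87 were lower without overlap, against 11.1% of all features on 6 arrays. The culture of 59A PDR8-S288c nearest to the wild type in the cytosolic synthetase genes was replicate 1. Whether the cytosolic synthetase genes follow the ribosomal protein genes was not tested.

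**Figure D5:**
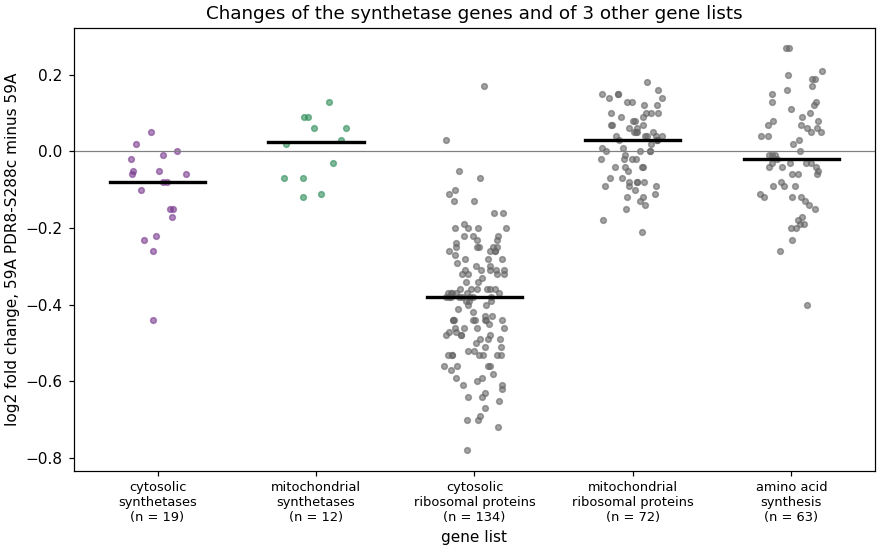
Each point is the LogFC of a gene (y axis, 59A PDR8-S288c minus wild type 59A) in 5 gene lists, and the black bars are the medians, at -0.08, 0.03, -0.38, 0.03 and -0.02 from left to right. The cytosolic synthetase genes lie mostly just below 0, above most of the cytosolic ribosomal protein genes, and the mitochondrial synthetase genes lie around 0.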

How the data were processed

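Deposited were log2 values of spot medians from one-color Agilent arrays, after the authors' quantile normalization in limma (R 2.13.1). By the methods the background stands at 5.3. Whether these 6 arrays were normalized with the wider data set is not given in the sources used here. No further scaling was applied. Among 6271 probes, 5220 carried 1 gene symbol and 1051 none in the table used. The brightest probe represented each of 22 genes with several probes, none of them a synthetase gene, which left 6248 features. Differences between strains came from lmFit and eBayes without trend or block (limma 3.58.1, R 4.3.3), and p-values were adjusted over all features by Benjamini-Hochberg. The fit was tested on simulated data. Samples were grouped by their titles, whose replicate numbers differ from the descriptions for 2 cultures of 59A PDR8-S288c. Alternatives tried were array weights, slide position, replicate blocks, filters on dim or missing values, trended variance, probe means, median centring, repeated quantile normalization and leaving out each array. Plots were drawn with matplotlib 3.10.9.

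Members, lists and tests were chosen with earlier results of these data known. All 31 members are named, with every culture for those past an unadjusted p under 0.05 and for the 3 lowest and 3 highest changes of each compartment. *ILS1*, the *ERG* genes, the enzyme classes and the amino acid pairs were added after the values had been seen. *RPP1* and *MRP8*, which match the ribosomal protein names but are not counted as such genes, were then taken out of those lists, and the ribosomal protein count was recomputed under every alternative. No sequences were used here.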

Additional observations from a re-analysis of the deposited data

How the results depend on the processing

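Across the 16 alternatives, 460 of 483 values of single synthetase genes kept their direction and their side of an adjusted p under 0.05. Many of these values could not turn. Probe means, trended variance and the filters leave the LogFC of a synthetase gene unchanged, as do replicate blocks for genes on all 6 arrays. None of the genes was called in the main comparison, so the count is not a measure of robustness. In *KRS1* the replicate block by titles gave -0.44 with an adjusted p of 0.042 (limma), the 1 member called in any alternative. Deviations from the strain mean were correlated between same-numbered cultures over 4190 features. The values were 0.17, 0.34 and -0.43 with the numbers of the titles, and -0.05, -0.69 and -0.43 with those of the descriptions. Within a strain the deviations of 3 cultures are not independent, so these values cannot decide whether cultures were paired. By this measure not every wild type culture correlated best with its own number. Calls over all features, 96 in the main comparison, were 19 with that block, 3 with the block by descriptions, 6 with slide position, 152 with trended robust variance, 208 with array weights and 3 to 90 without single arrays. Slide position left 1 of the 31 genes past an unadjusted p under 0.05, beside 595 of 6248 features. Its strain difference rests on 1 wild type culture. On features of all 6 arrays the mitochondrial median was -0.02 and 3 of 5 pairs had the lower cytosolic change. Without single arrays the cytosolic median ran from -0.13 (without wild type replicate 1) to -0.06, and the mitochondrial one from 0.00 to 0.04. The sign turned in genes near 0. *CDC60* was 0.00 with median centring or a second quantile normalization, and ran from -0.06 to 0.08 without single arrays. Array weights gave 0.00 for *DPS1*, -0.01 for *GLN4* and -0.02 for *MSY1*. Either block gave 0.00 for *MES1*. Slide position gave 0.03 for *DED81*, 0.09 for *DPS1*, -0.05 for *GLN4* and *MSY1* and 0.02 for *ISM1*. Without single arrays *DED81* ran from -0.20 to 0.03, *DPS1* from -0.13 to 0.04, *GLN4* from -0.02 to 0.06, *MSY1* from -0.04 to 0.05, *MSW1* from -0.10 to 0.03, *MES1* from -0.04 to 0.00 and *GCN4* from -0.03 to 0.09. The cause of these changes was not tested.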
